A study of Homo sapiens with 9 samples.

Results

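GLDC and 9 further genes of serine and glycine metabolism were followed in MCF10A cells before and after transformation by the cytokines BMP2 and IL6. The 10 genes were taken by symbol from a count table of 60199 gene symbols. GLDC was selected on its higher level in M1B26 than in MC26, so its values are given as a description without a test, and the 9 others (AMT, GCSH, DLD, PHGDH, PSAT1, PSPH, SHMT2, MTHFD2 and ALDH1L2) were selected as its pathway. All 10 had a row in the table and all 10 were among the 15717 genes that passed the filter on low counts. The question was whether the pathway moved with GLDC.

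MCF10A is a human mammary epithelial line. CT was the parental MCF10A line, grown without added BMP2 or IL6 and labelled as not transformed. MC26 was obtained from unsorted MCF10A cells by long exposure to BMP2 and IL6, and M1B26 from a BMPR1B-positive sort of MCF10A (BMPR1B is a BMP receptor) that received the same cytokines, after which 3 soft-agar clones were selected and expanded. Both derived lines are labelled as transformed and were kept in BMP2 and IL6, so in each line the cytokines, the transformation and the selection of cells cannot be told apart, and M1B26 differs from MC26 also in the sort and the cloning. Poly-A RNA of 3 cultures per line was sequenced. The labels do not say whether the cultures were independent, so the p-values measure only the spread between these samples, which may be technical.

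Total counts per library ran from 21425118 to 80076597, with the lowest total in CT replicate 2. Levels are given in CPM, counts scaled to a library size of 1000000 after TMM adjustment. Of 6 epithelial markers, EPCAM in MC26 had the lowest level, at 11.7 CPM. KRT14, another of the 6, averaged 54.1, 1097 and 548.2 CPM in CT, MC26 and M1B26. The 10 markers of other cell types summed to 32.1 to 41.1 CPM in CT, 39.3 to 48.5 CPM in MC26 and 52.8 to 64.1 CPM in M1B26. The highest of the 10 in each line were CD68, COL1A1 and ACTA2, and CD3E was at 0 throughout. CD68 averaged 8.96, 22.5 and 26.7 CPM in CT, MC26 and M1B26, and COL1A1 7.73, 9.74 and 15.4 CPM. ACTA2 averaged 15.2, 11.8 and 15.2 CPM in the same order. PECAM1 went the other way, with 5.04, 0.268 and 0.898 CPM. CDKN2A and CDKN2B, which the MCF10A line is known to have lost, had no count in any library.

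The glycine cleavage system is a mitochondrial complex of 4 proteins. GLDC (the P protein) decarboxylates glycine, GCSH (the H protein) carries the remaining aminomethyl group on its lipoate arm, AMT (the T protein) passes a carbon unit from it to tetrahydrofolate, and DLD (the L protein) reoxidises the lipoate. Serine is made from the glycolytic intermediate 3-phosphoglycerate by PHGDH, PSAT1 and PSPH in turn. In mitochondria SHMT2 converts serine to glycine, and MTHFD2 and ALDH1L2 oxidise the folate-bound carbon that is released. Glycine is thus made and consumed in the same compartment, and high GLDC or PHGDH expression is known from several tumour types.

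The 10 genes lie on 7 chromosomes. In GENCODE v44 on GRCh38, GLDC occupies chr9:6532467-6645729 on the minus strand, AMT chr3:49416778-49422685 (minus), GCSH chr16:81081945-81096395 (minus) and DLD chr7:107891162-107931730 (plus). PHGDH is at chr1:119648411-119744218 (plus), PSAT1 at chr9:78297125-78330093 (plus) and PSPH at chr7:56011051-56051604 (minus). SHMT2 is at chr12:57229573-57234935 (plus), MTHFD2 at chr2:74186172-74217565 (plus) and ALDH1L2 at chr12:105019784-105107643 (minus). All are protein-coding.

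The promoter sequences of GLDC and PSAT1, the members on chromosome 9 and both lowest in MC26, are shown because the levels below differ at these genes. They are the 250 bases before the RefSeq start on GRCh38.p14, at chr9:6645730-6645979 (minus) for GLDC and chr9:78296875-78297124 (plus) for PSAT1, written 5′ to 3′ on the strand of the gene. Capitals mark GC boxes (GGGCGG) and CCAAT boxes (CCAAT) on either strand.
GLDC: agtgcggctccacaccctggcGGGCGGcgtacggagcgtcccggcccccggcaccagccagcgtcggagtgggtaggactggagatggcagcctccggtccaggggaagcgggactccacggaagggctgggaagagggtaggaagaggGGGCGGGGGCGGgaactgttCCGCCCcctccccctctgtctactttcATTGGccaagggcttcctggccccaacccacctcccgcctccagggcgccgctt
PSAT1: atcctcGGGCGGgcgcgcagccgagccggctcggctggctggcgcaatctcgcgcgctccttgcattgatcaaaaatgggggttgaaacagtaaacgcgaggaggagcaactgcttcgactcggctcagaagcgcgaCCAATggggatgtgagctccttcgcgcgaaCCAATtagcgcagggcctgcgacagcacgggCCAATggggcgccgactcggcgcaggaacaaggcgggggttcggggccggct

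The GLDC window is 70.8% G and C, against a median of 64.8% over 10946 promoters of tested genes, and holds 4 GC boxes and 1 CCAAT box. The PSAT1 window is 65.6% G and C and holds 1 GC box and 3 CCAAT boxes. At least 1 GC box was found in 66.4% of those promoters and at least 1 CCAAT box in 35.1%. The core of the C/EBP-ATF response element, searched as TGATGNAA, was present in 1.5% of them and the E-box CACGTG in 8.9%. Neither was found in the windows of the 7 members with a RefSeq promoter entry, which says only that these letters are not in these windows. Matches were counted on both strands, and no GC box and CCAAT box overlapped in the windows shown.

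GLDC was low in MC26 and at overlapping levels in CT and M1B26. Its level was 37.3, 35.2 and 32.8 CPM in the 3 CT libraries, 2.79, 2.51 and 4.61 CPM in MC26 and 37.3, 34.5 and 40.9 CPM in M1B26. Every MC26 library lay below every other library, while the CT and M1B26 libraries overlapped. The means were 35.1 ± 2.25 CPM in CT, 3.30 ± 1.14 CPM in MC26 and 37.6 ± 3.25 CPM in M1B26 (SD, n = 3). MC26 thus stood at 9.41% and M1B26 at 107.0% of the CT mean. The log2 fold change was -3.40 (SE 0.18) for MC26 against CT, 0.10 (SE 0.15) for M1B26 against CT and 3.50 (SE 0.18) for M1B26 against MC26. The difference by which GLDC was selected was therefore one between MC26 and the other two lines. It rested on 96 to 196 counts per MC26 library and 805 to 2689 counts per CT library. Without MC26 replicate 3, the highest of that line, the values were -3.72 for MC26 against CT and 3.83 for M1B26 against MC26. A lower level in MC26 could reflect fewer cells with GLDC RNA or less of it in each cell, which cannot be told apart in bulk RNA.

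**Figure D1:**
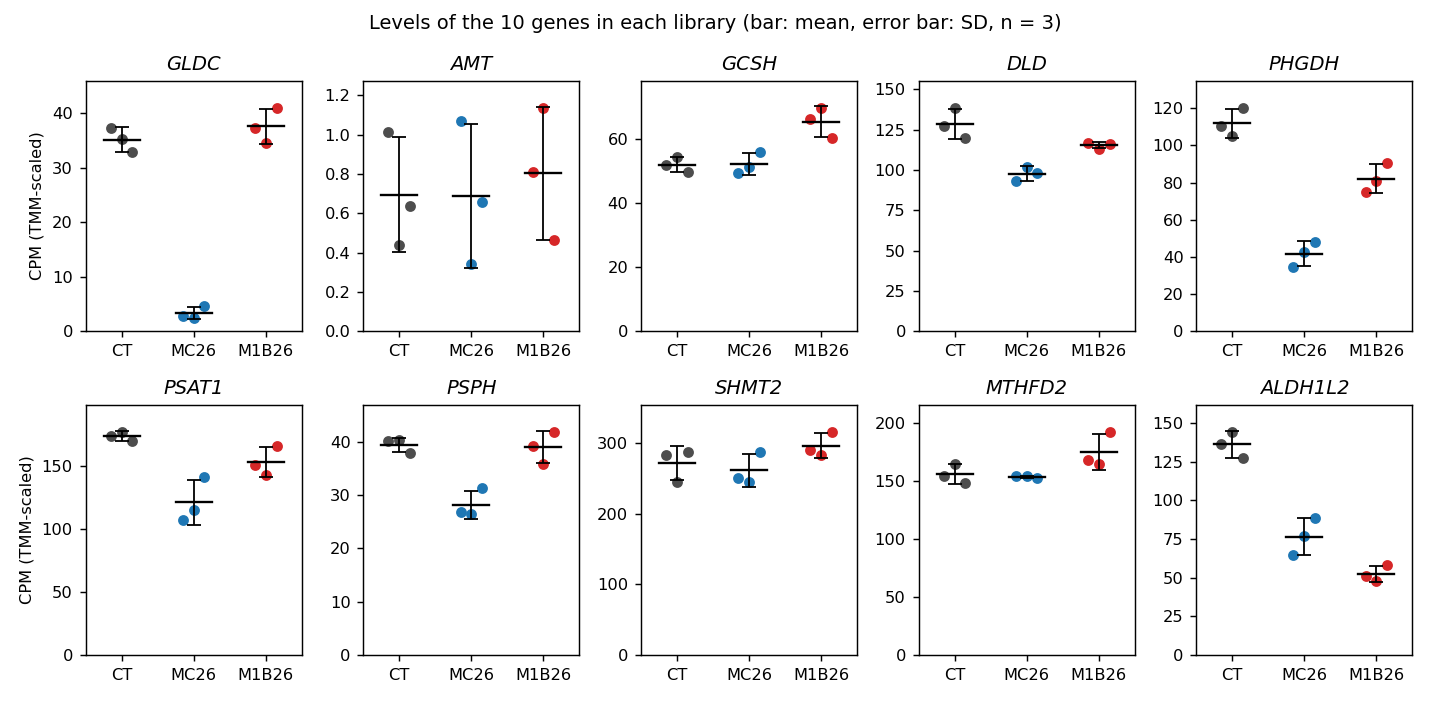
Level of each of the 10 genes in CPM (TMM-scaled, linear axis from 0) in the 3 libraries of CT, MC26 and M1B26. Points are libraries, horizontal bars means and error bars SD (n = 3). GLDC sits at 2.51 to 4.61 CPM in MC26 and at 32.8 to 40.9 CPM in the other lines, PHGDH is lowest in MC26 and ALDH1L2 is lowest in M1B26.

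The other 3 proteins of the cleavage system did not share this pattern in full. DLD, which also serves the pyruvate, 2-oxoglutarate and branched-chain ketoacid dehydrogenases, had 127.4, 138.5 and 119.7 CPM in CT, 93.1, 102.0 and 97.9 CPM in MC26 and 116.6, 113.2 and 116.0 CPM in M1B26. The 3 lines did not overlap, with CT highest and MC26 lowest. DLD fell in MC26 against CT by 0.39 on the log2 scale (SE 0.07, adjusted p = 0.00115) and was higher in M1B26 than in MC26 (log2 fold change 0.24, SE 0.07, adjusted p = 0.0180). The latter call was lost without MC26 replicate 1 (adjusted p = 0.0659) or M1B26 replicate 1 (adjusted p = 0.0503). M1B26 against CT was not called (-0.16, SE 0.07, adjusted p = 0.0803), but was without CT replicate 3 (adjusted p = 0.0381).

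GCSH overlapped between CT and MC26 and rose in M1B26. Its libraries held 51.9, 54.5 and 49.7 CPM in CT, 49.6, 51.2 and 56.0 CPM in MC26 and 66.2, 69.8 and 60.3 CPM in M1B26. All 3 M1B26 libraries exceeded the other 6. The log2 fold change of M1B26 was 0.33 against CT (SE 0.08, adjusted p = 0.00418) and 0.32 against MC26 (SE 0.08, adjusted p = 0.00673), and that of MC26 against CT was 0.01 (SE 0.08, adjusted p = 0.940). The processed pseudogene GCSHP5 drew 3365 counts beside the 24438 of GCSH, so reads may have been split between them. With both summed, an alternative chosen after seeing the data, M1B26 remained higher than CT (0.29, adjusted p = 0.0162) and MC26 (0.36, adjusted p = 0.00762). GCSH also shares 430 and 442 exonic bases with unnamed protein-coding genes on its strand, which the sum does not cover.

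AMT, the aminomethyltransferase, was close to the limit of measurement, with 10 to 71 counts per library. Its level was 1.01, 0.44 and 0.63 CPM in CT, 1.07, 0.34 and 0.66 CPM in MC26 and 0.81, 1.14 and 0.46 CPM in M1B26. The 3 lines overlapped throughout, and no difference was detectable at this depth (adjusted p from 0.752 to 0.905, SE from 0.43 to 0.44 on the log2 scale). AMT shares 353 exonic bases with NICN1 on the same strand. Of its 5675 exonic bases, 3555 are shared with an unnamed protein-coding gene on that strand, which had no row in the count table. Reads of AMT could thus be misassigned or lost, which could also affect its level per kilobase. Per kilobase of canonical transcript, AMT stood at 0.348 CPM in CT, against 9.13 CPM for GLDC, 33.3 CPM for GCSH and 36.3 CPM for DLD. In MC26 GLDC fell to 0.859 CPM per kilobase, still above AMT (0.345 CPM per kilobase).

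The 3 enzymes of serine synthesis were all lower in MC26 than in CT and all higher in M1B26 than in MC26. PHGDH, which catalyses the first step, had 110.2, 104.9 and 120.2 CPM in CT, 34.4, 42.7 and 47.7 CPM in MC26 and 75.1, 80.8 and 90.3 CPM in M1B26. The lines did not overlap and M1B26 was intermediate, at 73.4% of the CT mean against 37.2% for MC26. PHGDH fell by 1.43 in MC26 against CT (log2 scale, SE 0.12, adjusted p = 6.49e-06). M1B26 relative to CT gave -0.45 on the same scale (SE 0.11, adjusted p = 0.00725). It was 0.98 higher in M1B26 than in MC26 (SE 0.11, adjusted p = 1.08e-04). These 3 calls held without any single library.

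PSAT1, the aminotransferase of the next step, had 173.5, 177.3 and 169.4 CPM in CT, 106.9, 115.3 and 141.4 CPM in MC26 and 150.5, 143.0 and 166.1 CPM in M1B26. MC26 replicate 3 reached close to the lowest M1B26 library without passing it. PSAT1 fell in MC26 against CT by 0.52 (log2 scale, SE 0.10, adjusted p = 0.00202) and was 0.34 higher in M1B26 than in MC26 (SE 0.10, adjusted p = 0.0190). That second call was lost without MC26 replicate 1 (adjusted p = 0.0704), MC26 replicate 2 (adjusted p = 0.0748) or M1B26 replicate 3 (adjusted p = 0.0739).

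PSPH, the phosphatase of the last step, had 40.2, 40.3 and 38.0 CPM in CT, 26.8, 26.5 and 31.3 CPM in MC26 and 39.2, 35.9 and 42.0 CPM in M1B26. Like GLDC it overlapped between CT and M1B26, with all MC26 libraries below. It fell by 0.49 in MC26 against CT (log2 scale, SE 0.09, adjusted p = 0.00122) and was 0.47 higher in M1B26 than in MC26 (SE 0.09, adjusted p = 0.00158). M1B26 against CT gave -0.02 (SE 0.08).

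**Figure D2:**
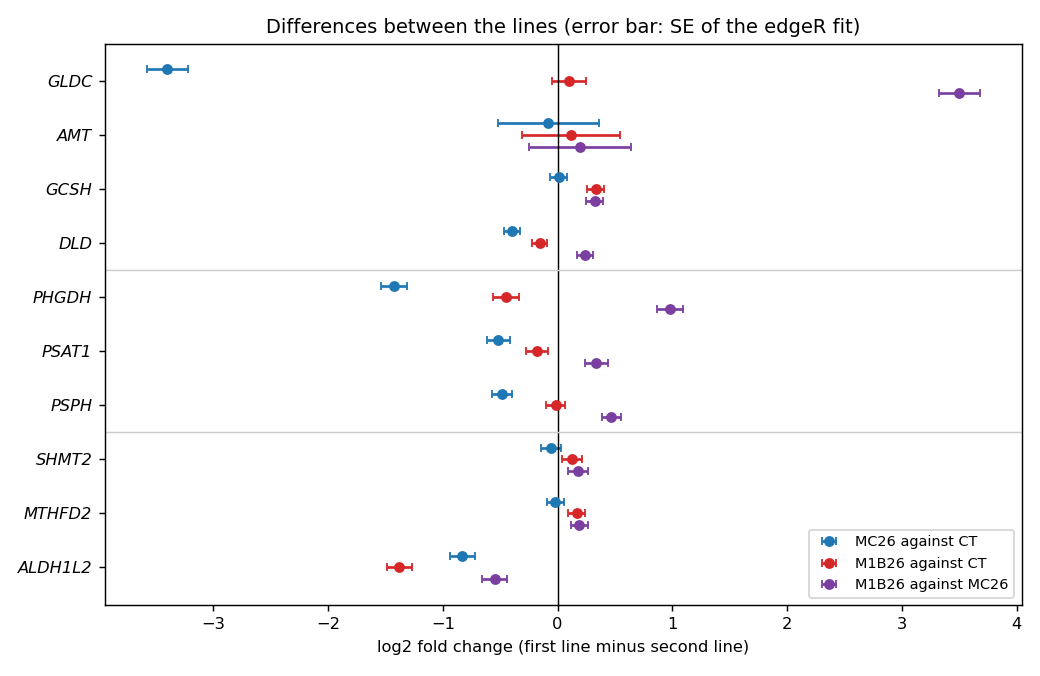
Log2 fold change (x axis, first line minus second line) of each of the 10 genes in the 3 comparisons between the lines, with the SE of the edgeR fit as error bars. GLDC lies at -3.40, 0.10 and 3.50, and PHGDH is the next furthest below 0 in MC26 against CT (-1.43), while ALDH1L2 is negative in all 3 comparisons.

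Of the mitochondrial folate enzymes, SHMT2 and MTHFD2 were not called in any comparison. SHMT2, the serine hydroxymethyltransferase that supplies glycine, was the most abundant member per kilobase in every line, at 126.0 CPM per kilobase in CT, 121.2 in MC26 and 137.5 in M1B26. Its libraries held 283.7, 244.6 and 287.2 CPM in CT, 251.3, 245.1 and 287.9 CPM in MC26 and 290.8, 282.5 and 316.5 CPM in M1B26, and all lines overlapped. Only without MC26 replicate 3 did M1B26 against MC26 pass (0.26, adjusted p = 0.0385). MTHFD2, a methylenetetrahydrofolate dehydrogenase, had 154.4, 165.2 and 148.6 CPM in CT, 154.4, 154.4 and 152.8 CPM in MC26 and 168.0, 164.8 and 192.8 CPM in M1B26. The M1B26 libraries lay above those of MC26 but overlapped CT. Without CT replicate 2, the shallowest library, MTHFD2 was called higher in M1B26 against CT (0.20, adjusted p = 0.0418) and against MC26 (0.18, adjusted p = 0.0477).

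ALDH1L2, the mitochondrial 10-formyltetrahydrofolate dehydrogenase, ran in another order. It had 136.7, 144.6 and 127.5 CPM in CT, 64.7, 76.7 and 88.5 CPM in MC26 and 51.3, 47.9 and 58.0 CPM in M1B26. The lines did not overlap, and the lowest was M1B26, at 38.4% of the CT mean. ALDH1L2 fell by 0.83 in MC26 against CT (log2 scale, SE 0.11, adjusted p = 2.17e-04), while M1B26 relative to CT gave -1.38 (SE 0.11, adjusted p = 4.64e-06). It also fell by 0.55 in M1B26 against MC26 (SE 0.11, adjusted p = 0.00304), opposite in sign to GLDC.

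Counted together, 5 of the 9 genes other than GLDC were called lower and 0 higher in MC26 against CT, where 38.7% of all tested genes were called (18.8% higher and 19.9% lower). Their median log2 fold change was -0.39, against 0.00 over all genes. In M1B26 against CT, 1 gene was called higher (GCSH) and 2 lower (PHGDH and ALDH1L2), where 48.9% of all genes were called (25.2% higher and 23.7% lower), and the median of the 9 was -0.02. In M1B26 against MC26, the contrast on which GLDC was selected, 5 genes were called higher and 1 lower (median 0.24), where 39.5% of all genes were called (21.2% higher and 18.4% lower). Libraries did not overlap for 5, 5 and 7 of the 9 genes in these comparisons, against 50.3%, 59.0% and 53.5% of all tested genes. The comparisons share the CT or the MC26 libraries, so their counts are not independent.

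By their means, 4 members ran CT, M1B26, MC26 from high to low (DLD, PHGDH, PSAT1 and PSPH), an order found in 15.4% of all tested genes. Another 4 ran M1B26, CT, MC26 (GLDC, AMT, SHMT2 and MTHFD2). Of these only GLDC had neighbouring lines in that order (CT and MC26) whose libraries did not overlap. The share of all tested genes in this order was not counted, and the selection of GLDC had set its M1B26 level above MC26. GCSH ran M1B26, MC26, CT and ALDH1L2 ran CT, MC26, M1B26. Within lines the members also varied together in part. MC26 replicate 3 held the highest value of its line for 7 of the 10 genes, where it held that of 37.7% of the 10637 tested genes averaging 5 CPM or more. M1B26 replicate 3 was the highest of its line for 7 members (36.1% of the same genes), whereas in CT replicate 2 was highest for 6 (44.7%).

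The genes with the profile nearest to GLDC over the 9 libraries were POGLUT3, EPCAM, KIF7, GLS2 and IL17RE. Likeness was measured as the root mean square difference of centred log2 CPM, in which 0 is an identical profile, and these 5 of 10636 genes had 0.49, 0.51, 0.59, 0.64 and 0.67. POGLUT3, an endoplasmic reticulum O-glucosyltransferase, averaged 28.5 CPM in CT, 0.946 CPM in MC26 and 27.4 CPM in M1B26. EPCAM, an epithelial adhesion molecule and one of the epithelial markers above, had 74.4, 71.2 and 65.6 CPM in CT, 11.7, 13.5 and 19.1 CPM in MC26 and 67.1, 63.5 and 85.7 CPM in M1B26. Its low level thus stood beside that of GLDC in MC26, and its part in the difference was not tested.

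KIF7, a ciliary regulator of hedgehog signalling, averaged 4.95, 0.861 and 9.20 CPM in CT, MC26 and M1B26. GLS2, a mitochondrial glutaminase, averaged 8.87, 1.65 and 7.08 CPM in the same order, and the interleukin receptor gene IL17RE 12.3, 2.93 and 12.4 CPM. Each of the 5 was lower in all MC26 libraries than in any other library. Of the members, PHGDH came nearest, at rank 68 of 10636 (0.639% of genes were as near or nearer), followed by PSPH at 538, PSAT1 at 628 and DLD at 1133. GCSH, SHMT2 and MTHFD2 ranked between 2300 and 2930, and ALDH1L2 ranked 6009. These ranks describe 9 libraries from 3 lines and carry no test.

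**Figure D3:**
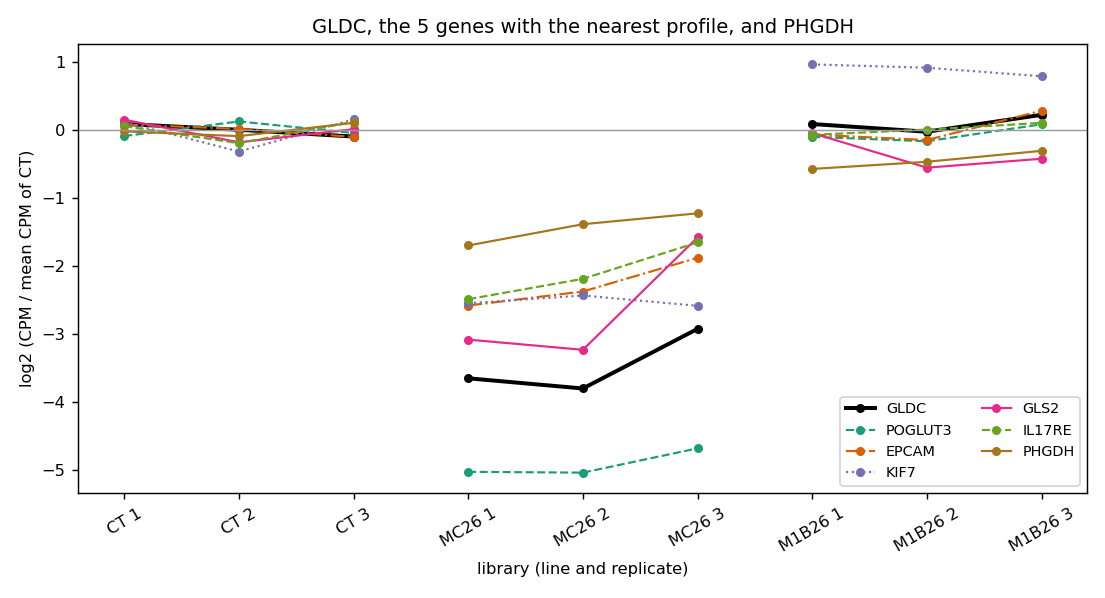
Log2 of CPM relative to the CT mean of the same gene, in each of the 9 libraries, for GLDC, the 5 genes with the nearest profile and PHGDH, with lines joining libraries of one line only for legibility. All 7 genes are below 0 in every MC26 library, POGLUT3 the lowest and PHGDH the least.

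No tested gene around GLDC fell as far as GLDC in MC26. Of 8 protein-coding genes starting within 1 Mb of the GLDC start, 6 were tested, and MLANA and TPD52L3 had no count. UHRF2, a ubiquitin ligase whose start is 233 kb away, averaged 41.8, 45.3 and 44.7 CPM in CT, MC26 and M1B26 and was not called in any comparison. KDM4C, a histone demethylase on the other side of GLDC whose start is 75.1 kb away, was not called in MC26 against CT (-0.12, SE 0.08) and fell in M1B26 by 0.47 against CT (adjusted p = 4.78e-04). KIAA2026 was likewise called only in the comparisons with M1B26 (its M1B26 mean was 77.9% of the CT mean), and RANBP6 in none. ERMP1, a metallopeptidase gene, fell in both derived lines against CT (by 0.70 and by 0.64 on the log2 scale), and M1B26 against MC26 was not called (0.06, SE 0.07, adjusted p = 0.551). IL33, an alarmin cytokine, rested on 3 to 9 counts in the CT libraries, 9 to 63 in MC26 and 124 to 199 in M1B26, and was called higher in all 3 comparisons.

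**Figure D4:**
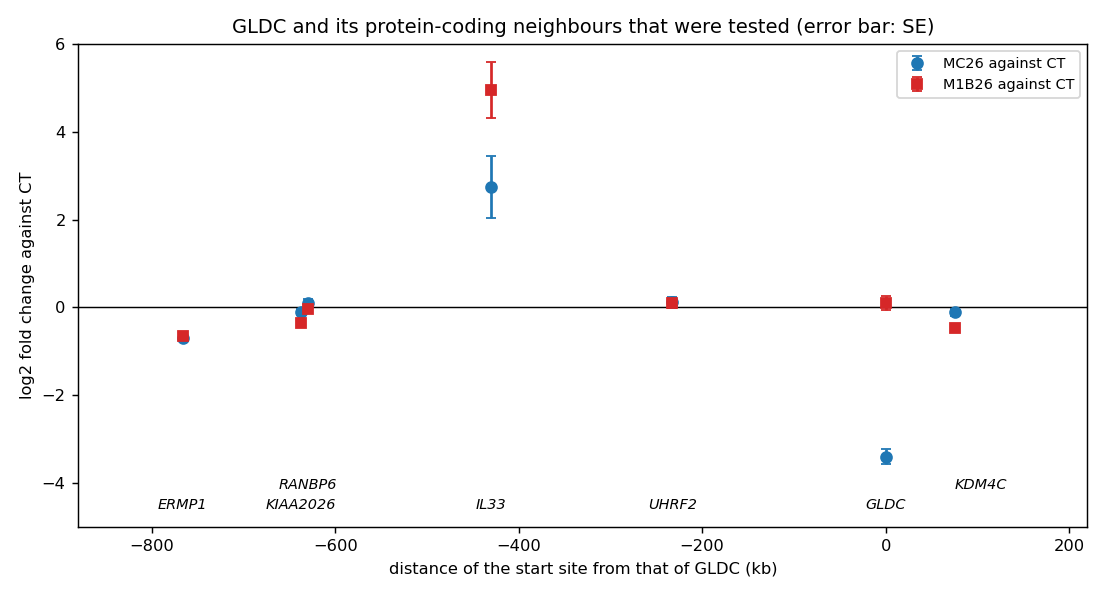
Log2 fold change against CT (y axis, error bars SE) of GLDC and of the 6 tested protein-coding genes whose start lies within 1 Mb, by the distance of their start from that of GLDC in kb (x axis). Circles are MC26 and squares M1B26. GLDC in MC26 lies at -3.40, whereas no other gene shown is below -0.70.

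Beyond the members, 56 further genes of lipoate attachment, folate metabolism, transport and other serine or glycine enzymes were listed, and 42 of them were tested. Of these, 9 were called higher and 13 lower in MC26 against CT (median log2 fold change 0.02), 11 higher and 13 lower in M1B26 against CT (0.04), and 10 higher and 8 lower in M1B26 against MC26 (-0.02). Over all tested genes, 38.7% were called in MC26 against CT, 48.9% in M1B26 against CT and 39.5% in M1B26 against MC26. The shares higher and lower were 18.8% and 19.9%, 25.2% and 23.7%, and 21.2% and 18.4% in the same order. These shares apply also to the counts of the single lists below. With library totals alone as the scaling, the split in M1B26 against CT was 6 higher and 16 lower.

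CBS and ALDH1L1 had the lowest fold changes in MC26 against CT among the called genes of their lists. CBS, which joins serine to homocysteine in the transsulfuration pathway, had 4.39, 3.19 and 4.04 CPM in CT, 0.0497, 0.288 and 0.447 CPM in MC26 and 4.67, 4.80 and 3.77 CPM in M1B26. In MC26 these values rested on 2, 11 and 19 counts, the first below the limit of detection of 3 counts. The near-identical copy CBSL may take part of the reads of CBS. With both summed, an alternative chosen after seeing the data, the means were 3.90 ± 0.653 CPM in CT, 0.353 ± 0.0837 CPM in MC26 and 4.43 ± 0.580 CPM in M1B26 (SD, n = 3). Fitted on the sum, the log2 fold change was -3.47 in MC26 against CT (SE 0.22, adjusted p = 1.42e-06), 0.16 in M1B26 against CT (SE 0.17, adjusted p = 0.451) and 3.63 in M1B26 against MC26 (SE 0.22, adjusted p = 1.64e-06).

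ALDH1L1, the cytosolic counterpart of ALDH1L2, had 2.67, 1.97 and 2.23 CPM in CT, 0.149, 0.209 and 0.424 CPM in MC26 and 1.60, 1.42 and 1.39 CPM in M1B26. ALDH1L1 rested on 6, 8 and 18 counts in the MC26 libraries. It fell by 3.12 in MC26 against CT (log2 scale, SE 0.30, adjusted p = 1.90e-05). M1B26 relative to CT gave -0.66 (SE 0.24, adjusted p = 0.0386), so the order of the derived lines was opposite to that of ALDH1L2. Among the 10 tested cytosolic folate enzymes, 3 were called higher and 3 lower in MC26 against CT. GGH, a gamma-glutamyl hydrolase of folates, rose against CT, by 0.38 in MC26 (adjusted p = 0.00220) and by 0.97 in M1B26 (adjusted p = 2.88e-06). MTR, the methionine synthase, fell by 0.52 in M1B26 against CT (adjusted p = 1.68e-04) and by 0.45 against MC26 (adjusted p = 6.97e-04).

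Of 14 other enzymes that make or use serine or glycine, 7 were called lower and 1 higher in MC26 against CT (median -0.28), 5 lower and 3 higher in M1B26 against CT (0.03), and 6 higher and 3 lower in M1B26 against MC26 (0.05). The 1 gene called higher in MC26 was GLYCTK, a glycerate kinase (0.47, adjusted p = 0.0195), which also rose in M1B26 against CT (0.54, adjusted p = 0.00778). SPTLC3, a subunit of the serine palmitoyltransferase, averaged 28.7, 20.2 and 14.8 CPM in CT, MC26 and M1B26 and had the lowest fold change of the called genes averaging 1 CPM or more in M1B26 against CT (-0.95, adjusted p = 1.38e-05). GCLM, the modifier subunit of the glutathione-making glutamate-cysteine ligase, had the lowest in M1B26 against MC26 (-0.84, adjusted p = 3.49e-04).

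Transporters included genes that fell in both derived lines. Among the 8 tested, 3 were called lower and 2 higher in MC26 against CT, 4 lower and 1 higher in M1B26 against CT, and 3 lower and 0 higher in M1B26 against MC26. SLC1A4, a neutral amino acid transporter that carries serine, had 6.99, 7.16 and 7.74 CPM in CT, 2.81, 2.77 and 2.59 CPM in MC26 and 1.58, 1.42 and 1.96 CPM in M1B26. It fell by 1.42 in MC26 (log2 scale, SE 0.14, adjusted p = 2.03e-05) and by 2.14 in M1B26 (SE 0.14, adjusted p = 1.16e-06) against CT, and by 0.71 in M1B26 against MC26 (adjusted p = 0.00308). SLC1A5, which carries glutamine and other neutral amino acids, averaged 242.8, 358.4 and 334.8 CPM in CT, MC26 and M1B26 and rose in both lines against CT (0.56, adjusted p = 6.83e-04, and 0.46, adjusted p = 0.00153).

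Other mitochondrial one-carbon genes were called only upwards against CT. Of 7 tested, 3 were called higher and 0 lower in MC26 against CT, and 3 higher and 0 lower in M1B26 against CT. In MC26 the largest was SLC25A32, the mitochondrial folate carrier (0.36, adjusted p = 0.00374), and in M1B26 MTHFD2L, a paralog of MTHFD2 (0.46, adjusted p = 0.00104). SFXN1, a mitochondrial serine transporter, averaged 177.3, 187.4 and 221.8 CPM in CT, MC26 and M1B26 and was higher in M1B26 than in MC26 (0.24, adjusted p = 0.00604). MTHFD1L, the mitochondrial formyltetrahydrofolate synthetase, was lower in M1B26 than in MC26 (-0.23, adjusted p = 0.00841). Of the 3 lipoate genes, none was called in MC26 against CT or in M1B26 against MC26, and 2 were called higher in M1B26 against CT, with the larger change in LIPT1, a lipoyltransferase (0.35, adjusted p = 0.0393).

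**Figure D5:**
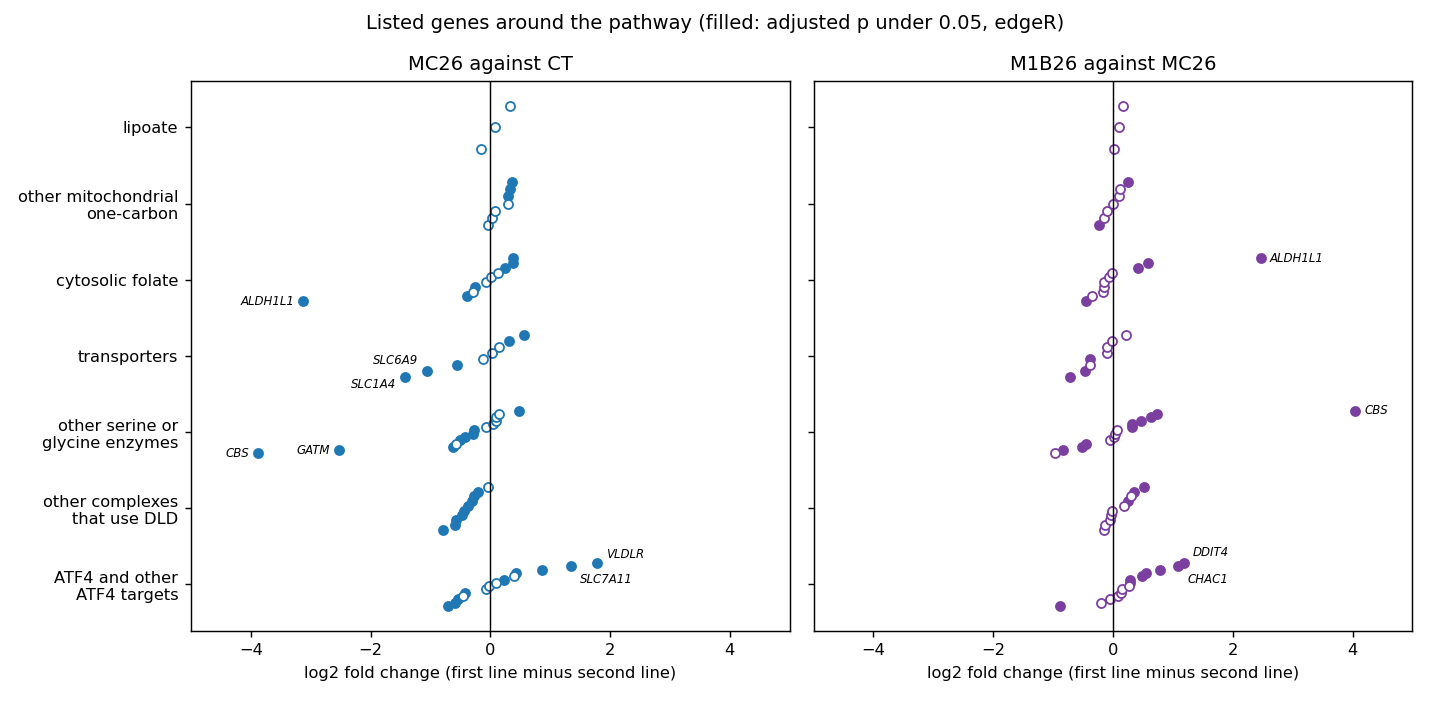
Log2 fold change (x axis, first line minus second line) of the tested genes of 7 lists around the pathway in MC26 against CT (left) and M1B26 against MC26 (right), 1 point per gene, filled where the adjusted p was under 0.05 (edgeR). Genes beyond 1 on either side are named. Among the other complexes that use DLD, 9 of 10 genes are filled and below 0 on the left. CBS, which had only 2 to 19 counts per MC26 library, lies at -3.88 on the left and 4.05 on the right.

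Genes of the other complexes that use DLD were also counted. Of 10 genes for subunits of the pyruvate, 2-oxoglutarate, 2-oxoadipate and branched-chain ketoacid dehydrogenases, 9 were called lower and 0 higher in MC26 against CT (median -0.41), where 19.9% of all tested genes were called lower. Only DLST was not called (-0.04). In M1B26 against CT 5 were lower and 0 higher, and in M1B26 against MC26 3 were higher, 0 lower and 7 not called. BCKDHB, a subunit of the branched-chain complex, had 25.3, 22.8 and 23.8 CPM in CT, 11.7, 14.0 and 15.9 CPM in MC26 and 21.1, 19.0 and 19.8 CPM in M1B26, without overlap between lines. It fell by 0.79 in MC26 against CT (log2 scale, SE 0.11, adjusted p = 2.36e-04) and was 0.52 higher in M1B26 than in MC26 (SE 0.11, adjusted p = 0.00317). DHTKD1, of the 2-oxoadipate complex, fell by 0.48 in M1B26 against CT (adjusted p = 9.75e-04).

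ATF4 is a transcription factor of the amino acid response, and PHGDH, PSAT1, PSPH, SHMT2, MTHFD2 and ALDH1L2 are known among its targets. ATF4 RNA averaged 386.0 ± 14.9 CPM in CT, 368.2 ± 34.4 CPM in MC26 and 447.1 ± 15.8 CPM in M1B26 (SD, n = 3). It was not called in MC26 against CT (-0.07, SE 0.08, adjusted p = 0.508) and was higher in M1B26 than in CT (0.21, adjusted p = 0.0373) and MC26 (0.28, adjusted p = 0.0132). With 13 targets outside the pathway, this list of 14 had 5 genes called higher and 4 lower in MC26 against CT (median 0.04), 7 higher and 1 lower in M1B26 against CT (0.34), and 7 higher and 1 lower in M1B26 against MC26 (0.27).

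Over all tested genes, 18.8% were called higher and 19.9% lower in MC26 against CT. The shares called higher were 25.2% in M1B26 against CT and 21.2% in M1B26 against MC26. The targets did not follow a single order. Of the 4 called lower in MC26 against CT, ASNS, SLC3A2 and DDIT4 were called higher in M1B26 than in MC26, and STC2 was not. ASNS gave -0.58 (adjusted p = 0.00180) and 0.55 (adjusted p = 0.00259) in these comparisons. SLC3A2 gave -0.43 (adjusted p = 0.00516) and 0.29 (adjusted p = 0.0353). Another 5 were called higher in MC26 against CT. The targets below are named by their highest or lowest fold changes. SLC7A11, the cystine transporter, rose in MC26 against CT (1.35, SE 0.18, adjusted p = 2.47e-04) and was lower in M1B26 than in MC26 (-0.88, SE 0.18, adjusted p = 0.00322). DDIT4, an inhibitor of mTORC1 signalling, averaged 895.6, 618.0 and 1402 CPM in CT, MC26 and M1B26 and was 1.18 higher in M1B26 than in MC26 (log2 scale, SE 0.15, adjusted p = 1.46e-04). STC2, a secreted glycoprotein, fell in both derived lines against CT (by 0.71, adjusted p = 0.0112, and by 0.76, adjusted p = 0.00619). CHAC1, a glutathione-degrading enzyme, rose in M1B26 against CT (1.49, SE 0.33, adjusted p = 0.00328), with M1B26 replicate 3 at 7.24 CPM and the others at 2.44 and 3.79 CPM.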

How the data were processed

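Poly-A RNA of 9 MCF10A-derived cultures (3 CT, 3 MC26, 3 M1B26) was sequenced in paired-end mode. Titles gave the groups and replicate numbers. The authors deposited 1 table of raw counts by gene symbol. Per the methods of the study and the submitters' processing notes, reads were aligned to GRCh38 with STAR 2.7.3a and GENCODE v33, and Salmon 1.1.0 is also named, so which program counted, whether it used strand and how it placed multiply aligned reads remain unknown. Reads of overlapping or near-identical genes can therefore be misassigned. Among the members, DLD shares 300 exonic bases with LAMB1 on the opposite strand. ALDH1L2 shares 145 with NOPCHAP1 and 131 with WASHC4, and MTHFD2 shares 1324 with SLC4A5, which drew 59 counts. SHMT2 shares 352 with an unnamed non-coding gene. GCSH shares 430 and 442 with unnamed protein-coding genes on its own strand.

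The analysis used edgeR 4.0.16 under R 4.3.3. A filter on low counts (filterByExpr with a minimum of 10) was applied, libraries were scaled by TMM, and a quasi-likelihood model with the 3 lines as its term was fitted to all 9 libraries. The 2-sided p-values of glmQLFTest were adjusted by Benjamini-Hochberg over all 15717 genes, and an adjusted p under 0.05 was called. The biological coefficient of variation was 10.4%. Every adjusted p in the text is from this fit unless another setting is named. The fit was tested on simulated counts with known fold changes. At least 3 counts in a library were taken as the limit of detection, 0.0366 to 0.131 CPM.

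The members and the gene lists were chosen with earlier results of these data known. Named were the 10 members, and from each other list and comparison the called gene with the highest and the lowest log2 fold change among those with a mean of at least 1 CPM. Also named were the protein-coding genes within 1 Mb of the start of GLDC, and the 5 genes with the nearest profile among those with a mean of at least 5 CPM (log2 with 0.5 added). ATF4, DLST, ASNS and SLC3A2 were named after their values were seen. Positions came from GENCODE v44, matched by symbol for 36923 symbols holding 98.78% of counts, and promoters from RefSeq (GRCh38.p14), which matched 7 members. Alternatives were RLE scaling, library totals alone, DESeq2 1.42.0, other filters, only the libraries compared, a replicate block, a threshold of 0.01, and leaving out each library.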

Additional observations from a re-analysis of the deposited data

Results flagged for a closer look

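For 6 members the change from CT differed between the derived lines, by the direct test of M1B26 against MC26 (edgeR, adjusted p under 0.05). The difference, as the log2 fold change of M1B26 minus that of MC26, was 0.98 for PHGDH, 0.47 for PSPH, 0.34 for PSAT1, 0.32 for GCSH and 0.24 for DLD. It was -0.55 for ALDH1L2, the single member of the 6 that lay lower in M1B26. Of all tested genes, 39.5% were called in this comparison. All 3 M1B26 libraries lay on the same side of all 3 MC26 libraries for each of these genes, as for 53.5% of all tested genes. The genes were taken by their call, so this lack of overlap is no separate support. GLDC, which was selected for this pattern, was left out. With single libraries left out, DLD lost its call without MC26 replicate 1 or M1B26 replicate 1. PSAT1 lost its call without MC26 replicate 1, MC26 replicate 2 or M1B26 replicate 3. No other rule for outlying libraries was applied to groups of 3.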

How the results depend on the processing

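Between 3 and 6 of the 9 members other than GLDC were called per comparison, and the settings not named below kept these counts within 1.5 times. With library totals alone, 5 members were called in M1B26 against CT in place of 3, since DLD (-0.25, adjusted p = 0.0187) and PSAT1 (-0.27, adjusted p = 0.0473) were then lower. The cause was not tested. That scaling moved the median of all genes to -0.08, -0.09 and -0.02 in the 3 comparisons. With the threshold at 0.01, 14 other listed pathway genes were called in MC26 against CT in place of 22, a loss that follows from the stricter threshold. With 1 library left out, 5 members were called each time in MC26 against CT, 3 to 4 in M1B26 against CT and 4 to 7 in M1B26 against MC26. For the other listed genes these ranges were 17 to 24, 18 to 25 and 15 to 21. Over single genes with 1 library left out, 259 values kept their side of the threshold (GLDC was judged by a move of 1 SD instead). Another 5 lost a call, 4 gained one and 2 (GLDC without MC26 replicate 3) moved by more than 1 SD. Under the other settings, summed copies included, 211 values were unchanged in this sense and 2 gained a call. No called value changed sign. Values that were not called did in places, such as AMT in M1B26 against CT (-0.21 to 0.49 with 1 library left out).

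Deviations of same-numbered libraries correlated at -0.17 to 0.36 and those of differently numbered libraries at -0.31 to 0.31. These ranges overlap, so they do not settle whether the replicate numbers pair the samples. With a replicate block, 5, 3 and 6 members and 22, 22 and 18 other listed genes were called, and the block changed no member's call. Depth limited AMT, at 10 to 71 counts per library, for which differences of the size of its SE could not be resolved. Nor could somewhat larger ones, since a call needed a change well above the SE. For SHMT2, 0.18 with an SE of 0.09 was not called in M1B26 against MC26.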
